A study of Saccharomyces cerevisiae with 10 samples.

Results

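Chromatin accessibility on Day 28 was compared with accessibility on Day 10 of a laboratory evolution experiment in Saccharomyces cerevisiae. The comparison takes 4 of the 10 ATAC-seq libraries of the series, 2 of Day 28 and 2 of Day 10, chosen by the day their labels give, and covers all 3515 merged peaks of the series. In the experiment, cells with the lowest reporter fluorescence were sorted every day through Day 7 and then grew with no sorting, so that both days compared here fall in the stretch without selection. The strain, WP35, was W303 MATalpha with the reporter PGAL1-YFP at ho (in the labels, HO::HIS3::pGAL1-YFP) and the markers leu2, trp1, can1, ura3, ade2 and his3. Day 28 and Day 10 cells came from the same single evolution line, were revived from frozen stocks, and were grown in synthetic complete medium with 0.1% mannose and then with 0.1% mannose and 0.2% galactose. The 2 libraries of each day were described as independent biological replicates of that 1 line, so the spread between them does not cover other evolution lines, and the time without selection cannot be told apart from anything else that differs between the revived stocks.

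In ATAC-seq a transposase cuts DNA that is not covered by nucleosomes or other proteins, and the reads counted in a peak measure how open that stretch is. Most yeast peaks lie at promoters, where a nucleosome-free stretch precedes the gene. Yeast centromeres are also short, defined sequences. Each carries a CDEI element, which the factor Cbf1 binds, an AT-rich CDEII stretch held by a nucleosome with the histone variant Cse4, and a CDEIII element bound by the CBF3 complex, on which the kinetochore is built. Mannose and galactose enter the cell through hexose transporters of the HXT family and Gal2, and the GAL genes convert galactose for glycolysis under control of Gal4, Gal80 and Gal3.

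Sequences from peaks that the results turn on are given first. The centromeres of chromosomes VII and XII lay in peaks with lower counts on Day 28. The centromere of chromosome V lay in the 1 centromere peak that was higher. Each is read 5′ to 3′ in the orientation of the annotation (RefSeq, assembly R64). The annotated CDEI and CDEIII elements are in capitals, with CDEII between them.
CEN7, chr7:496920-497038, minus strand: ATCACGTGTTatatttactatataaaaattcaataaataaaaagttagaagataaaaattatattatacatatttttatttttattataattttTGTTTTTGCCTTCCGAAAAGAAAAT
CEN12, chr12:150828-150947, minus strand: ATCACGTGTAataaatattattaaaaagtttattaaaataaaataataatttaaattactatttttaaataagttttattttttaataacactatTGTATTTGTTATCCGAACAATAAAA
CEN5, chr5:151987-152104, plus strand: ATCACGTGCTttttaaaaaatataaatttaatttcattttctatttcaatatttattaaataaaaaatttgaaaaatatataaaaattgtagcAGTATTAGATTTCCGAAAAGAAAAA
The AT share of CDEII was 92.9% in CEN7, 94.1% in CEN12 and 91.6% in CEN5.

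Among the peaks highest on Day 28 relative to Day 10 were those upstream of HXT7 and of UTH1. For both, the 150 bases that begin 400 bases before the start codon are shown, in the direction of the gene. Capitals mark matches, on either strand, to CCCCT (the stress response element of Msn2 and Msn4) and CGGANNA (the site of Rgt1, the repressor of HXT genes). The Hap2/3/4/5 box CCAAT, the Gcr1 core CTTCC, the Mig1 core CCCCGC, the E-box CACGTG of Cbf1, Pho4 and Tye7, and the Gal4 site were also searched, on both strands, and none of these letters occurs in the 2 windows.
HXT7, chr4:1156179-1156328, minus strand: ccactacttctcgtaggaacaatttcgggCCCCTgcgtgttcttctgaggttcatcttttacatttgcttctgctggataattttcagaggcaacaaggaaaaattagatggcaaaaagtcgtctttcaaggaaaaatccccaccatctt
UTH1, chr11:519127-519276, plus strand: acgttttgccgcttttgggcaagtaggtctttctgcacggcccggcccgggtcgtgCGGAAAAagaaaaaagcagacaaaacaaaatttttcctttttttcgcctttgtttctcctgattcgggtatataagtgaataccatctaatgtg
In the same window of all 6001 protein-coding genes, CCCCT was found in 12.7% and CGGANNA in 15.7%, so both matches shown are of a common kind. CCAAT occurred in 26.3%, CTTCC in 27.8%, CCCCGC in 2.02%, CACGTG in 2.38% and the Gal4 site in 1.10% of them.

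The 4 libraries differed in depth and in profile in a way that touches every result below. Counts in peaks totalled 4748625 and 10515135 in the Day 28 libraries, against 9446104 and 15068275 in the Day 10 libraries, and no peak had fewer than 45 counts in any of the 4. The second Day 28 library resembled the first Day 10 library (r = 0.995 over peaks, log2 CPM, the counts scaled to the library total) more than its own replicate (r = 0.989), and the first Day 28 library resembled the second Day 10 library (r = 0.991) more than its own replicate. The SD of the log2 ratio was 0.20 between the 2 Day 28 libraries and 0.17 between the 2 Day 10 libraries. Between single libraries of different days it ran from 0.14 to 0.25. It was 0.14 between the means of the days, but a mean of 2 libraries varies less than 1 library. At 1607 of the 3515 peaks the difference between the means of the days was smaller than both replicate differences, and at 871 it was larger than both. These counts also set means against single libraries, so they do not show that the days were closer than replicates.

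No peak passed the test between Day 28 and Day 10. With edgeR's quasi-likelihood test and Benjamini-Hochberg adjustment over all peaks, 0 of 3515 peaks (0%) had an adjusted p under 0.05, and the lowest adjusted p was 0.19, at the RRP6 peak. Single libraries bore on this count, with 12 peaks called, all lower, without the second Day 28 library and 2 without the first, in fits where the lone Day 28 library is assumed to vary like the Day 10 pair. At an unadjusted p under 0.05, 195 peaks passed (5.55%), 129 higher on Day 28 (3.67%) and 66 lower (1.88%). The normalized counts of the days did not overlap at 1264 peaks (36%), with both Day 28 libraries highest at 744 (21.2%) and lowest at 520 (14.8%). DESeq2 gave an adjusted p to 517 peaks, those its filter on mean count left, and called 8 of them (1.55%), all 8 higher on Day 28. The RRP6 peak was given none and so could not be called. In the decile of peaks with the most counts, 189 of 352 lay higher on Day 28 without overlap and 0 lower. The shared direction of the 8 calls is therefore not separate from abundance.

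A missed threshold does not show that a peak stayed the same, so the interval of each difference was read as well. For 2936 peaks (83.5%) the whole 95% interval of the log2 fold change lay within 0.5 of 0, so that a change of that size was not covered by the interval, and for 1236 (35.2%) it lay within 0.3. In the main comparison 8 peaks differed by 0.5 or more on the log2 scale, and 7 of these did not overlap between the days. The median absolute difference was 0.09, and 1935 peaks (55.0%) differed by less than 0.1. The 579 peaks whose interval reached past 0.5 had a lower median length (682 bases, against 890.5 for the others) and median abundance (6.89 against 7.47 log2 CPM). They came from both ends of abundance, though. The interval lay within 0.5 at 40.1% of the decile with the fewest counts and at 51.1% of the decile with the most. In deciles 3 to 7 it did so at 94.0% to 98.6%.

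The 8 peaks whose intervals stayed closest to 0 were promoter peaks. The YNL195C peak had 2717 and 2668 normalized counts in the Day 28 libraries, against 2693 and 2596 in the Day 10 libraries. At the peak of the initiator methionine tRNA gene tM(CAU)J3 the counts were 2587 and 2681 on Day 28, against 2624 and 2552 on Day 10. Peaks of GAT4 (a GATA family zinc finger protein), TFB1 (a subunit of the transcription factor TFIIH), RCK2 (a kinase of the osmotic and oxidative stress response), YRM1 (a zinc finger regulator of multidrug resistance), CLD1 (a cardiolipin deacylase) and YBR221W-A complete the 8. Their intervals stayed within 0.19 of 0, and the libraries of the days overlapped in each. The peaks were picked by this closeness to 0, so it follows from the choice.

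The peaks that hold a centromere stood lower on Day 28 almost without exception. Each of the 16 centromeres lay inside 1 merged peak, and 15 of these 16 peaks had a lower estimate on Day 28, with a median log2 fold change of -0.28, against -0.02 over all peaks. In 13 of the 16 both Day 28 libraries lay below both Day 10 libraries, where 14.8% of all peaks did so, and in 1 of the 16 both lay above. Of the 66 peaks that were lower at an unadjusted p under 0.05, 11 held a centromere, although none passed edgeR's adjusted threshold. This group was formed after the largest differences had been seen, so its counts are a description and were not tested as a group.

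The peak with the lowest value on Day 28 relative to Day 10 was that of CEN15, which holds the start of RRP6, the gene of the nuclear exosome's 3′ to 5′ exonuclease. It had 547 and 602 normalized counts on Day 28, against 1025 and 1043 on Day 10. The days did not overlap, and the difference was several times the spread within either day. The log2 fold change was -0.87 (SE 0.13, 95% interval -1.16 to -0.58, adjusted p = 0.19 by edgeR). In a fit of all 10 libraries it was the 1 peak called, at -0.85 with an edgeR adjusted p of 0.031. With 1 library left out its edgeR adjusted p ranged from 0.00038 to 0.30.

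The CEN7 peak lies at the start of ERG26, a sterol dehydrogenase of ergosterol synthesis. It had 1046 and 1328 normalized counts on Day 28, against 1716 and 1666 on Day 10, a log2 fold change of -0.52 (SE 0.12). The CEN1 peak, at the start of TFC3, which encodes a subunit of the RNA polymerase III factor TFIIIC, had 995 and 1374 on Day 28, against 1498 and 1662 on Day 10. Neither pair of days overlapped. At CEN12 (YLR001C) the counts were 1366 and 1405 on Day 28, against 1727 and 1870 on Day 10, and at CEN14, beside DOM34, a ribosome rescue factor, they were 1623 and 1830 against 2188 and 2241. Here the 2 Day 28 libraries lay closer to each other than to either Day 10 library.

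CEN4 lies in the peak of NTH1, the neutral trehalase, which had 2807 and 3377 normalized counts on Day 28, against 3945 and 3812 on Day 10. CEN3 (YCL001W-B), CEN6 (LOC1), CEN8 (OSH7), CEN9 (SGN1) and CEN16 (CIT3) differed by log2 fold changes of -0.40, -0.28, -0.28, -0.27 and -0.27, with no overlap of the days. The smaller differences belonged to wide peaks that also span promoters, such as MET14 at CEN11 (-0.15) and ECM15 at CEN2 (-0.09), and across the 16 peaks the difference moved with the log2 of peak length (r = 0.82). The exception, IRC22 at CEN5, is the longest peak of the 16 at 3782 bases, and had 9147 and 9924 on Day 28, against 8608 and 8888 on Day 10.

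**Figure D1:**
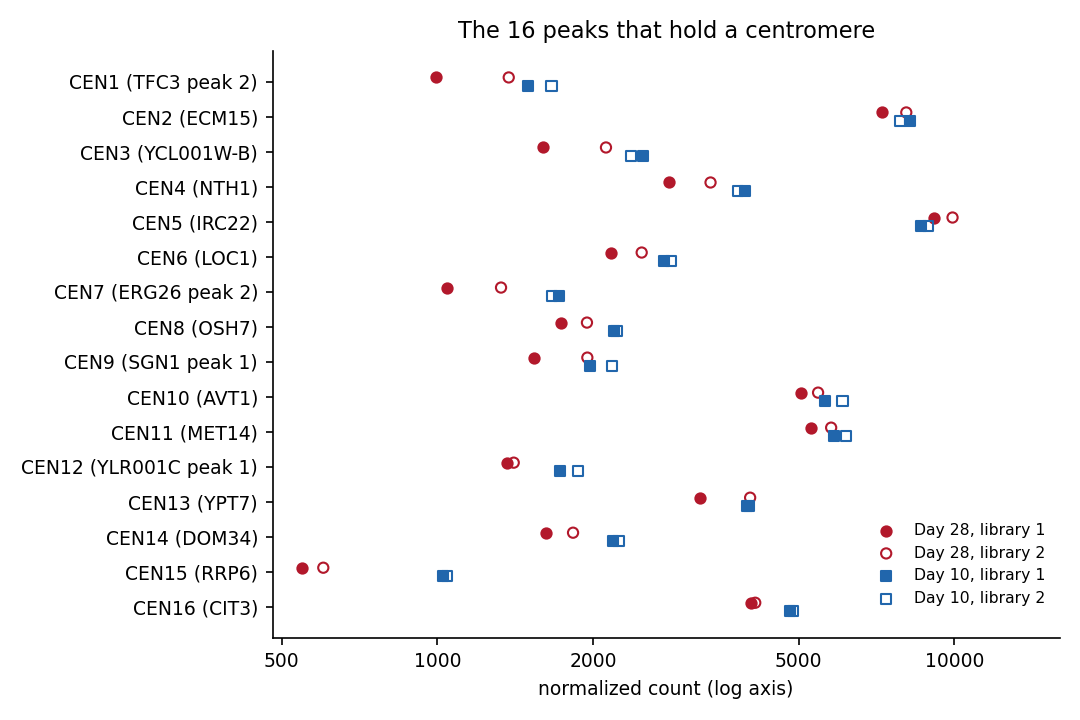
Normalized count (x axis, log scale) in each Day 28 library (circles) and each Day 10 library (squares) at the 16 peaks that hold a centromere, named by centromere and assigned gene. In 13 peaks both circles lie left of both squares, most widely at CEN15, and at CEN5 both lie to the right.

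The difference faded with distance from the centromere. The 12 other peaks within 2 kb had a median log2 fold change of -0.19, and 7 of them had both Day 28 libraries below both Day 10 libraries. From 2 to 5 kb the median was -0.11 over 34 peaks, from 5 to 10 kb -0.07 over 55 peaks, and beyond 100 kb -0.01 over 2573 peaks. From 10 kb on the medians lay between -0.04 and -0.01. The centromere peaks were AT-rich, with GC contents of 28.2% to 37.7%, and the 1424 other peaks within that range had a median of -0.06. Those peaks share the range only. Their median GC was 36.0%, against 32.2% for the centromere peaks, and their median length 677.5 bases, against 1558. After a loess correction on GC content and length the 16 centromere peaks kept a median of -0.23, and after one on abundance -0.32, with all 16 lower.

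**Figure D2:**
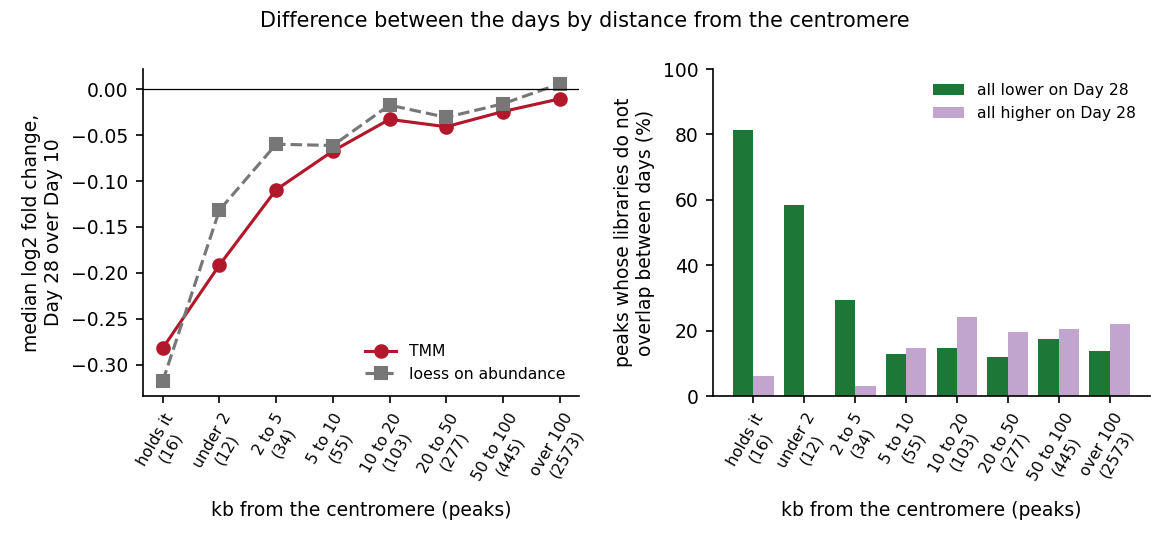
Left, median log2 fold change of Day 28 over Day 10 by distance from the centromere in kb, with TMM scaling and after loess on abundance. Right, percent of peaks whose Day 28 libraries lay all below (green) or all above (violet) the Day 10 libraries; the share all below was 81.2% where the peak held the centromere and 13.9% beyond 100 kb.

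No single library made the centromere result, though its size varied. Leaving out 1 library at a time gave medians of -0.41 to -0.21 over the 16 peaks, with 15 of 16 lower every time. The median was -0.41 without the second Day 28 library and -0.21 without the first. In these 2 fits the remaining Day 28 library is assumed to vary like the Day 10 pair, which alone gives the spread between replicates. As log2 distance from the mean of the 4 libraries, the median of the 16 peaks was -0.23 and -0.03 on Day 28, against 0.12 and 0.15 on Day 10. The first Day 28 library thus held more of the difference than the second. Centromere peaks took 0.45% and 0.48% of the counts of the Day 28 libraries, against 0.54% and 0.58% of those of the Day 10 libraries.

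After YLR466C-B, a peak at a chromosome end, the largest estimates on Day 28 over Day 10 lay at HXT7 and at UTH1. The HXT7 peak, upstream of a high-affinity hexose transporter gene, spans chr4:1155872-1157842 and had 12313 and 14019 normalized counts on Day 28, against 8268 and 8716 on Day 10. The log2 fold change was 0.61 (SE 0.14, 95% interval 0.29 to 0.92). It was called by DESeq2 (adjusted p = 0.00034) and not by edgeR (adjusted p = 0.81). The YDR344C peak, whose edge lies 67 bases upstream of the start codon of HXT6, a near-identical transporter gene, had 12512 and 14593 on Day 28, against 9846 and 9694 on Day 10, a log2 fold change of 0.45 (DESeq2 adjusted p = 0.036). At both neighbours the days did not overlap, and the next peaks of the cluster, at HXT3, had log2 fold changes of 0.22 and 0.15.

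The peak that the authors assigned to YKR040C spans chr11:517800-519699 and holds the start of UTH1, a SUN family protein of the cell wall and mitochondria, and that of YKR041W. It had 12719.6 and 13672 normalized counts on Day 28, against 9198 and 8979 on Day 10, a log2 fold change of 0.51 (SE 0.13, DESeq2 adjusted p = 0.0021). DESeq2 also called CLN1, a G1 cyclin, with 7413 and 7423 on Day 28, against 5609 and 5388 on Day 10. With HXT7 and YDR344C, the other peaks it called were YPR195C (log2 fold change 0.44), YLR412C-A (0.40), YOR314W-A (0.40) and RRN5, a subunit of the upstream activation factor of RNA polymerase I (0.39). In each the Day 28 libraries lay above the Day 10 libraries, and in none was the edgeR adjusted p below 0.81. Abundant peaks as a whole were higher on Day 28, and after loess on abundance the log2 fold change was 0.41 at HXT7, 0.31 at YKR040C, 0.24 at YDR344C, 0.28 at CLN1 and 0.17 at RRN5.

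TYE7, which encodes a helix-loop-helix activator of glycolytic genes, had 12168 and 15436 normalized counts on Day 28, against 11061 and 9159 on Day 10. KTI12, a factor of tRNA wobble uridine modification, had a log2 fold change of 0.41. After loess on abundance TYE7 was at 0.22 and KTI12 at 0.19. The days did not overlap in either peak, but at TYE7 the Day 28 libraries lay nearly as far apart as the means of the days. The single largest estimate, 0.75 at YLR466C-B (722 and 1040 on Day 28, against 510 and 527 on Day 10), lay at the end of chromosome XII, where 59.9% of its 100-base windows occur elsewhere in the genome, so its reads could come from other chromosome ends.

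**Figure D3:**
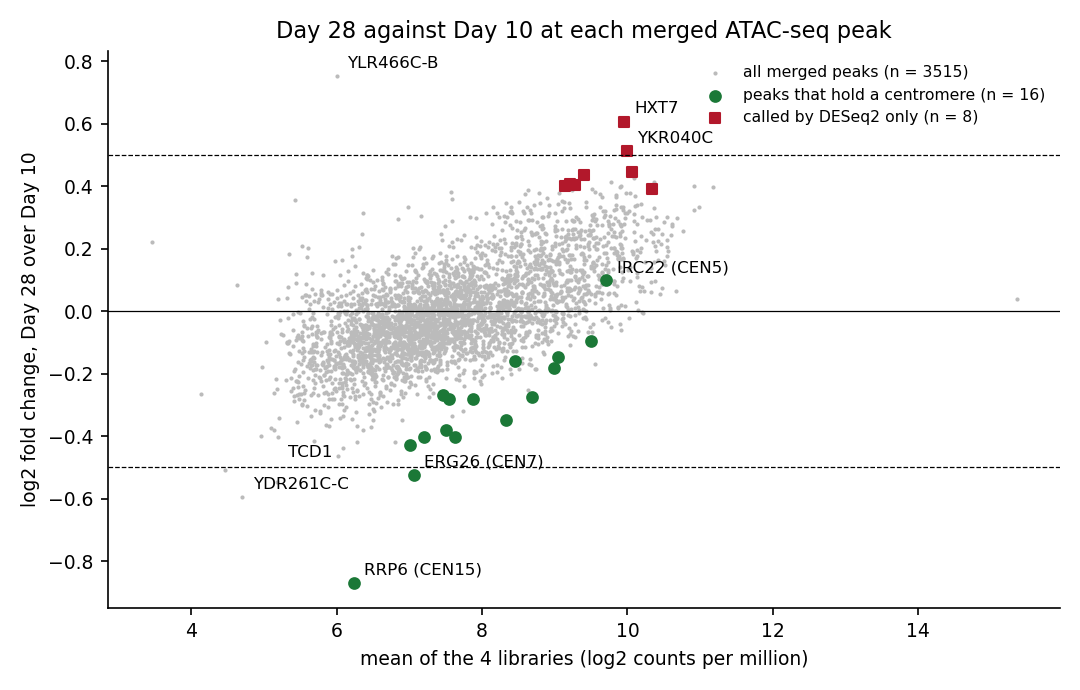
Log2 fold change of Day 28 over Day 10 against mean abundance (log2 CPM) for the 3515 peaks (grey), the 16 centromere peaks (green circles) and the 8 peaks called by DESeq2 (red squares), with dashed lines at 0.5 and -0.5. Abundant peaks tend to lie above 0, while the centromere peaks run along the lower edge of the cloud.

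Apart from the centromere peaks, the largest lower values on Day 28 lay both near a centromere and far from one. SMD1, a core protein of the spliceosomal snRNPs, had 637 and 555 normalized counts on Day 28, against 792 and 811 on Day 10. ZUO1, a ribosome-associated chaperone, had 1055 and 1031 on Day 28, against 1455 and 1288 on Day 10. Both lay over 100 kb from a centromere, and their log2 fold changes were -0.46 and -0.42. TCD1 and TRM12, both genes of tRNA modification, were lower by log2 fold changes of -0.55 and -0.44 and lay 5.47 and 6.39 kb from their centromeres. YDR261C-C, at a transposon, had a log2 fold change of -0.59 on 198 and 237 counts on Day 28, against 260.3 and 387 on Day 10, with 20.3% of its windows repeated. Its SE of 0.28 was the largest of these.

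Of the GAL network, the GAL10 peak differed most between the days. The GAL10 peak, which also holds the start of GAL1 in the shared promoter of the galactose kinase and epimerase genes, had 5403 and 5504 normalized counts on Day 28, against 4704 and 4149.8 on Day 10. The days did not overlap, and the log2 fold change was 0.28 (SE 0.11, 95% interval 0.04 to 0.51). At the start of GAL2, the galactose permease, the counts were 4415 and 4633 on Day 28, against 4117 and 3967 on Day 10, a log2 fold change of 0.14.

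GAL7 and GAL80 overlapped between the days. GAL7, the transferase gene, had 3335 and 3203 normalized counts on Day 28, against 3206 and 3439 on Day 10, and GAL80, the repressor of Gal4, had 1927 and 1872 against 1845 and 2043. The peaks that hold the starts of GAL3, the galactose sensor, and of GAL4, but were assigned to YDR008C and YPL247C, had log2 fold changes of 0.08 and -0.01. A minor second peak of GAL2 was at -0.16. Apart from GAL10 and that minor peak, every interval lay within 0.5 of 0.

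Of the 9 peaks assigned to hexose transporter genes, 5 were higher in both Day 28 libraries than in both of Day 10, 1 was lower and 3 overlapped, where 21.2% of all peaks were higher and 14.8% lower in this way. Their median log2 fold change was 0.15, with libraries at 0.03 and 0.17 on Day 28, against -0.05 and -0.17 on Day 10, as log2 distance from the mean of the 4. After HXT7, HXT2 (7282 and 8047 on Day 28, against 6577 and 6073 on Day 10) and a peak of HXT3 had log2 fold changes of 0.25 and 0.22, and HXT13 and HXT11 had 0.16 and 0.09. HXT5 (0.09), HXT10 (0.07) and the second HXT3 peak overlapped. HXT8 was at -0.19, with 524 and 534 counts on Day 28, against 558 and 622 on Day 10.

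The median log2 fold change over peaks of glycolysis and fermentation genes was 0.24. In 10 of 11 both Day 28 libraries exceeded both of Day 10, against 21.2% of all peaks and 44.4% and 53.7% of those in the 2 most abundant deciles. PDC1, pyruvate decarboxylase, had 6806 and 6715 on Day 28, against 5119 and 5273 on Day 10, and TDH3, glyceraldehyde-3-phosphate dehydrogenase, had 6377 and 7458 against 5516 and 5154. These peaks are abundant (median 9.10 log2 CPM), and after loess on abundance the median of the list was 0.13. HXK1, a hexokinase, had 10153 and 13743 on Day 28, against 10079 and 8696 on Day 10, so its lowest Day 28 library barely exceeded the highest of Day 10.

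The lists of cytosolic and mitochondrial ribosomal proteins had medians of opposite sign, a difference that was not tested. The shares of all peaks to set beside their counts are 21.2% higher and 14.8% lower without overlap. Among 41 peaks of large subunit genes of the cytosolic ribosome, 17 lay higher on Day 28 without overlap and 2 lower, and among 34 of the small subunit 18 lay higher and 1 lower, with median log2 fold changes of 0.14 and 0.12. RPL16B, for example, had 4824 and 5057 on Day 28, against 4097 and 3326 on Day 10. The median of the large subunit peaks was also taken as log2 distance from the mean of the 4 libraries. It was 0.01 and 0.17 on Day 28, against 0.01 and -0.20 on Day 10, so the libraries of a day stood unevenly. Among 39 peaks of mitochondrial ribosomal protein genes, 18 lay lower without overlap and 1 higher, with a median of -0.08. Their libraries stood at -0.05 and -0.01 on Day 28, against 0.04 and 0.02 on Day 10, a small but even difference. MRPL35 was the farthest, with 775 and 711 on Day 28, against 941 and 934 on Day 10.

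Lists of other functions are given against the same shares of all peaks, 21.2% higher and 14.8% lower without overlap. The 6 peaks of eisosome and SUR7 family genes had a median of 0.18, with 2 higher and 1 lower, and a median of 0.06 after loess on abundance. The 3 peaks of mannose entry genes had a median of 0.18, with 2 higher. The 10 peaks of glucose sensing and repression genes had a median of -0.02 and all 10 intervals lay within 0.5 of 0. The 22 peaks of heat shock and stress genes had a median of 0.00, with 2 higher and 4 lower without overlap, and the 6 of mating genes -0.04. Among 8 peaks of cyclins and cell cycle regulators 5 were higher without overlap and none lower, led by CLN1 and by CLB2, a mitotic cyclin (3118 and 3082 on Day 28, against 2624 and 2635 on Day 10). Among 46 peaks of amino acid synthesis genes and GCN4, 18 were higher and 6 lower without overlap. HIS1, the first enzyme of histidine synthesis, had 2430.4 and 2309 on Day 28, against 1881 and 1694 on Day 10. No peak of any list passed edgeR's adjusted threshold.

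**Figure D4:**
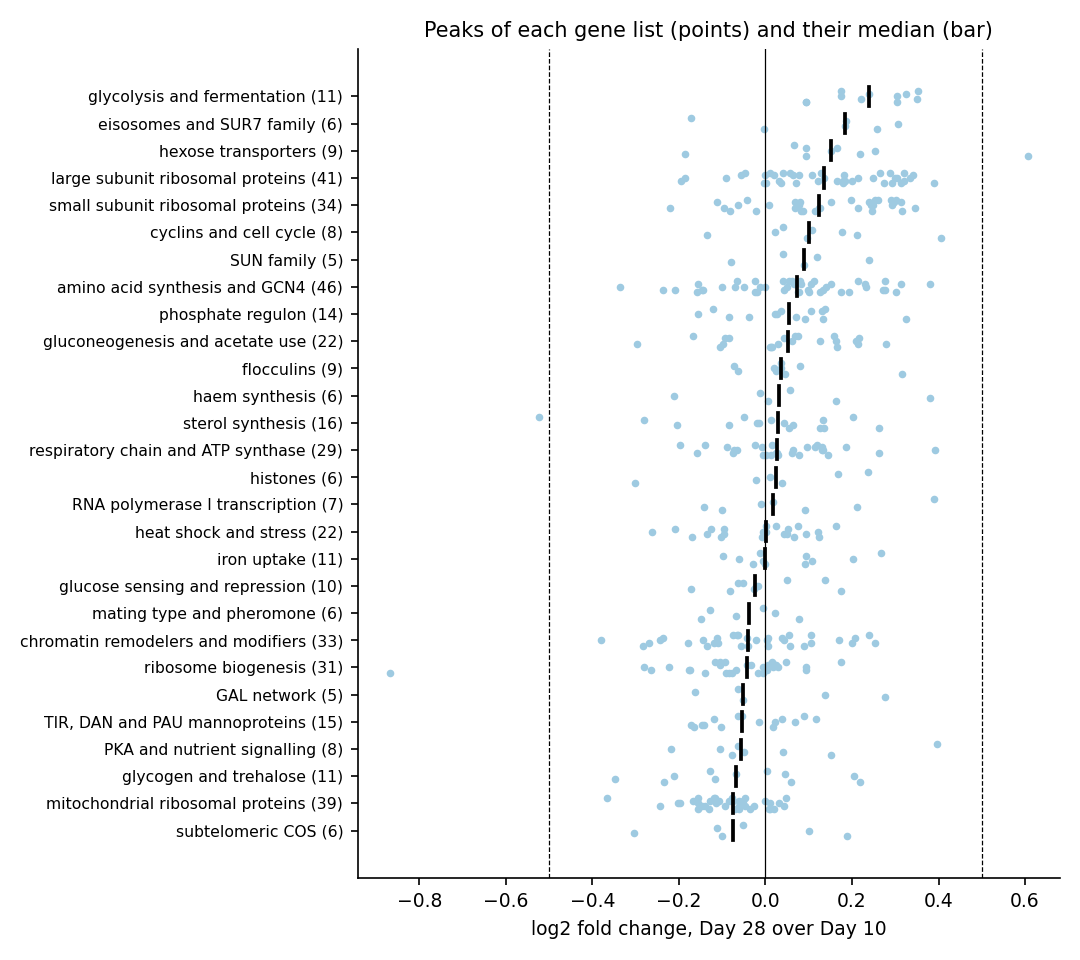
Log2 fold change of Day 28 over Day 10 (x axis) for every peak of the gene lists with 5 or more peaks (points; number of peaks in brackets) and the list median (bar), with dashed lines at 0.5 and -0.5. List medians run from -0.08 to 0.24, and the points beyond the dashed lines are HXT7, ERG26 at CEN7 and RRP6 at CEN15.

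Across all peaks the difference followed abundance. The median log2 fold change was -0.14 in the decile of peaks with the fewest counts and 0.18 in the decile with the most, and the correlation with mean log2 CPM was 0.61 over the 3515 peaks. The step from the lowest to the highest decile, as distance from the mean of the 4 libraries, was 0.01 and 0.29 in the Day 28 libraries, against 0.01 and -0.32 in the Day 10 libraries. By this measure the first library of each day lay near the mean, and the second libraries lay on opposite sides of it. Distance from a mean of the 4 does not show which single libraries hold the step. What produced it was not tested.

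Chromosomes kept their share of accessibility. The median log2 fold change ranged from -0.05 on chromosome VI to 0.02 on chromosome V, and over 243 windows of 50 kb with at least 5 peaks each it ranged from -0.17 to 0.10, so that no window reached 0.2. Peaks within 10 kb of a chromosome end had a median of -0.02. By class, 3001 promoter peaks had a median of -0.01, 376 peaks at transcript ends -0.07 and 114 exon peaks -0.03. Peaks that the authors called on both days numbered 3142, with a median of -0.01. The 257 peaks called on Day 10 and not on Day 28 had a median of -0.17. The 45 called on Day 28 and not on Day 10 had a median of 0.05. Both sets were short and had few counts. The calls that formed these sets were made on the days compared here, which bears on the sign of their medians. No conclusion is drawn from these signs.

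Set beside the other steps of the experiment, this was the longest and the one with the fewest calls. Over the 18 days from Day 10 to Day 28 edgeR called 0 peaks, against 2467 (70.2%) in the 3 days up to Day 10, 1128 (32.1%) in the step that ended on Day 7 and 653 (18.6%) in the step that ended on Day 3. The median standard error was also larger here, at 0.11, against 0.08, 0.07 and 0.10, so fewer calls do not by themselves show less change. The SD of the log2 fold changes, which counts replicate noise as well, was 0.14 here, against 0.50, 0.24 and 0.24. By the share of intervals within 0.5 of 0, this step had 83.5%, against 51.6%, 88.1% and 73.0% in the same order. On that measure the step that ended on Day 7 held more peaks within the limit than this one. The 1069 peaks that differed by 0.5 or more from Day 7 to Day 10 differed by a median of 0.14 from Day 10 to Day 28. Over all 3515 peaks that median was 0.09. Of the 8 peaks in all that reached 0.5, 5 were among the 1069. The interval lay within 0.5 of 0 at 62.0% of the 1069, against 83.5% of all peaks. Both steps share the Day 10 libraries, so the set is not independent of the step it is set beside.

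The difference between steps was tested peak by peak in a fit of all 10 libraries. Against the step from Day 7 to Day 10, which shares the Day 10 libraries, 1692 peaks (48.1%) differed by edgeR at an adjusted p under 0.05, 886 with a higher and 806 with a lower value in the later step. HXT7 was among them, with a difference of 1.13 (edgeR adjusted p = 0.0035), as was CEN15 at RRP6, with -1.58. Both peaks were named for their difference between Day 28 and Day 10. That difference is a term of this contrast, so these values are not independent of the choice. Against the step from Day 0 to Day 3, which shares no library, 2 peaks differed (0.0569%), and both were low on Day 0. LEU2, the isopropylmalate dehydrogenase gene and a marker of the strain, had 14481 and 16836 normalized counts on Day 28, against 15505 and 14109 on Day 10. Its Day 0 libraries had 4943 and 5417. FRT1 had 8805 and 9322 on Day 28, against 8375 and 7435 on Day 10, while its Day 0 libraries had 3378 and 3281.

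The levels on all 5 days are given for the CEN15 and HXT7 peaks, which were not on a one-way course. The CEN15 peak had 1095 and 903 normalized counts in the Day 0 libraries, 614 and 557 in those of Day 3, 614 and 660.3 in those of Day 7, then 1025 and 1043 at Day 10 and 547 and 602 at Day 28. HXT7 had 8014 and 8966 in the Day 0 libraries, 12323 and 12987 in those of Day 3, 13215 and 11400.1 in those of Day 7, then 8268 and 8716 at Day 10 and 12313 and 14019 at Day 28. In both peaks Days 3, 7 and 28 lay on one side and Days 0 and 10 on the other, without overlap. Of the 8 peaks with the largest non-overlapping higher values, 8 had both Day 3 libraries nearer the Day 28 side and 6 had both Day 7 libraries there, while 2 had both Day 0 libraries there. Of the 8 with the largest lower values, the counts were 5, 7 and 1. These peaks were chosen by their Day 28 and Day 10 values, which bears on the side where other days fall. The share over all peaks was not counted, so no conclusion is drawn from these counts.

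The centromere peaks as a group were also lower on Day 3 than on Day 0. In the step that ended on Day 3 all 16 had a lower estimate, with a median of -0.44. EdgeR called 10 of them in that step, where it called 18.6% of all peaks. In the step that ended on Day 7 the median was 0.08, with 4 called higher, and in the next it was 0.10 (0.04 over all peaks), with 6 called higher and 1 lower. Of all peaks 32.1% and 70.2% were called in these steps. Against this last step the change after Day 10 differed by a median of -0.37. EdgeR called 7 of the 16 differences, all of them negative, where it called 48.1% of all peaks. The Day 28 and Day 10 values by which the group was formed enter this contrast. The 16 peaks took 0.59% and 0.53% of the counts at Day 0, 0.42% and 0.39% at Day 3, and 0.42% and 0.44% at Day 7. The Day 28 shares lay between those of Days 3 and 7 and those of Day 10. Sums of normalized counts ran in another order, with 58304 and 57822 at Day 7, 58607 and 59751 at Day 10 and 49408 and 55801 at Day 28, so the order of Days 7 and 28 depends on the scaling, while Day 28 lay below Day 10 on both.

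**Figure D5:**
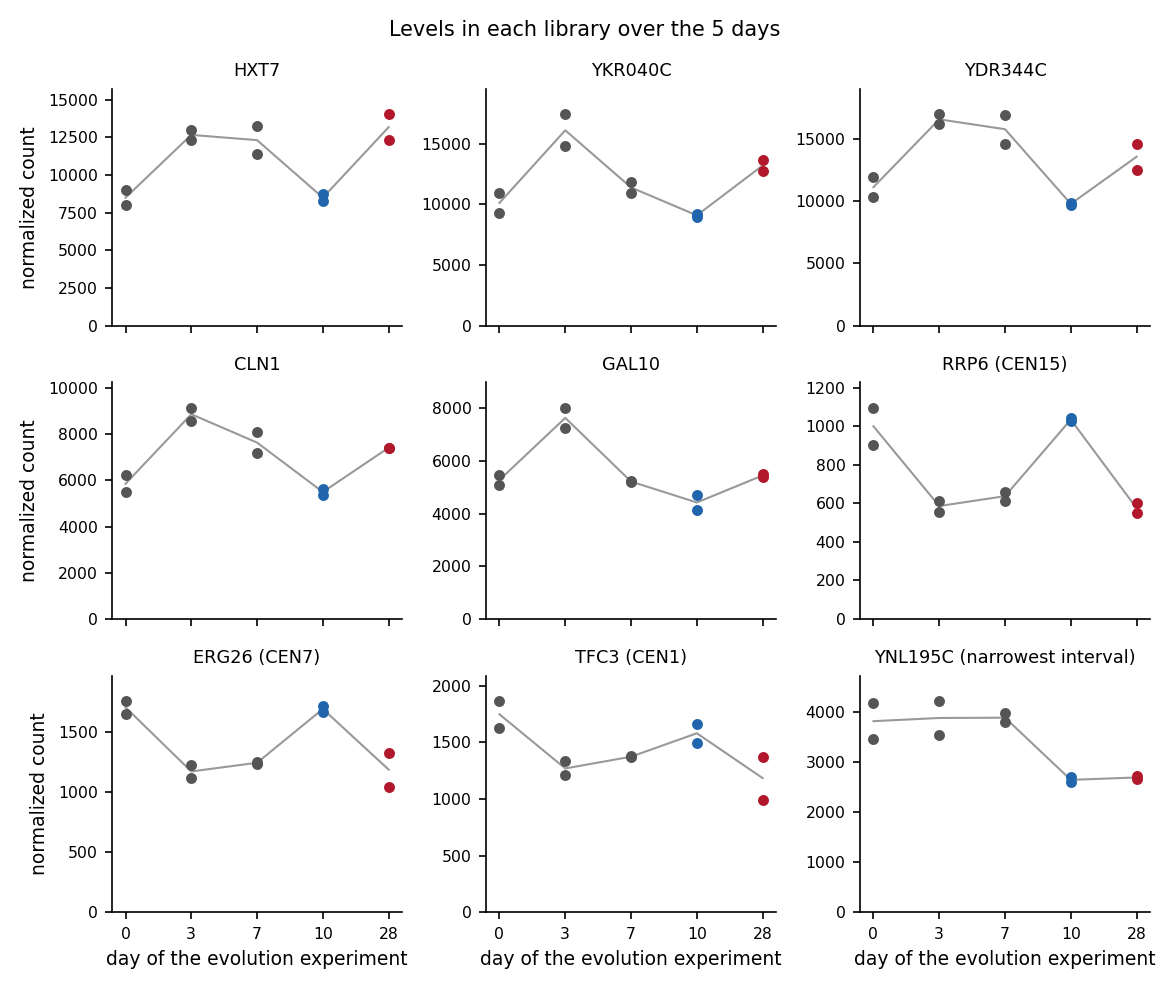
Normalized counts in each library (points) and the mean of each day (line) over Days 0, 3, 7, 10 and 28 at 9 peaks, with Day 28 in red and Day 10 in blue. HXT7 and YDR344C are low on Days 0 and 10, the CEN15 and CEN7 peaks are high on those days, and YNL195C holds the same level on Day 28 as on Day 10, below that of Days 0 to 7. The panel title of YNL195C refers to the interval that stayed closest to 0.

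At some peaks the replicates of a day lay farther apart than the means of the days. YNL194C, an eisosome-associated membrane protein, had 3167 and 5489 normalized counts on Day 28, against 6150.1 and 3609 on Day 10. STL1, the glycerol proton symporter, had 9521 and 16419 on Day 28, against 15465 and 10214 on Day 10. In both, the first library of Day 28 was nearest to the second of Day 10, and the second of Day 28 to the first of Day 10, and the means of the days hardly differed (log2 fold changes of -0.19 and -0.01). YOR392W had 122 and 247 on Day 28, against 315 and 232 on Day 10. For such peaks 2 libraries a day show neither a stable level nor a drift.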

How the data were processed

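Reads were trimmed with Trim Galore 0.5.0, mapped to R64 with Bowtie2 2.2.9, called as peaks with MACS2 2.1.1, merged with bedtools 2.30.0 and counted with featureCounts 1.6.3, per the study's methods and the submitters' processing notes. How duplicate and multiply mapped reads were treated is not given in the sources used here. The authors deposited raw counts per merged peak, with peak names that hold HOMER's annotation, and normalized counts, a signal equal to the raw count divided by 1 size factor per library (DESeq2 1.30.1). All sample columns were used.

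Day 28 was compared with Day 10 on raw counts in edgeR 4.0.16 (TMM, filterByExpr, which removed 0 peaks, quasi-likelihood test, Benjamini-Hochberg). Standard errors and 95% intervals came from the same fit, with 10.1 total degrees of freedom. DESeq2 1.42.0 and the alternatives of the closing section were also run. The fit was also run on simulated counts with known changes, and nothing above rests on that run. An exact permutation test on 2 against 2 libraries cannot go below p = 0.333, so none was used. Totals of 4748625 to 15068275 counts limit the precision, and intervals cover only the spread between these libraries. "Without overlap" was judged on deposited normalized counts.

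Named peaks were the 8 largest non-overlapping differences each way, every peak called by a method, the 8 narrowest intervals, all GAL network and HXT peaks, the 2 largest of each other list, HXT7 and YKR040C, and the 4 largest replicate differences of each day. Centromere peaks, and other members cited as examples, were chosen after their values were seen. The members and lists were chosen with earlier results of these data known. Centromeres, promoter windows and gene symbols came from RefSeq's R64 annotation, which matched 3097 of 3515 assigned units; distances to gene starts were recomputed within 2 bases for 99.9%. Some items withheld for evaluation, among them sequences, are not reported here.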

Additional observations from a re-analysis of the deposited data

How the results depend on the processing

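The 0 calls of edgeR stayed 0 with DESeq2's size factors, total counts, loess on abundance or on GC content and length, no filter, an average count of at least 500, thinning to the smallest library, an adjusted p under 0.1, and a replicate block by label. DESeq2 called 8 peaks, the fit of all 10 libraries 1, and leaving out 1 library 0 to 12, the 12 without the second Day 28 library and 2 without the first. The labels do not say that primed and unprimed libraries pair across days, and the replicate differences of the days correlated at -0.67, so the crossed replicate block was added after seeing the data: it called 533. An unadjusted p, also added later, gave 195. Peaks at or past 0.5 numbered 8, and 2 with loess on abundance, 3 with loess on GC content and length, 5 above an average count of 500, and 9 to 30 without 1 library (30 without the first Day 10 library, 23 without the first and 27 without the second Day 28 library). At a fold size of 0.3 they numbered 150. Intervals within 0.3 numbered 1236. The step from the lowest to the highest decile of abundance was 0.32, and 0.0117 after loess on abundance. With 2 libraries a day and a median standard error of 0.11, smaller drifts were not detectable.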

Other observations

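Over 189 peaks at tRNA genes the median log2 fold change was 0.02, 52 (27.5%) were higher and 13 (6.88%) lower without overlap, against 21.2% and 14.8% of all peaks, 6 were higher and 0 lower at an unadjusted p under 0.05 (edgeR), 182 had their interval within 0.5 of 0, and the range was -0.31 to 0.31. The 158 peaks that hold an annotated replication origin had a median of -0.01, with 32 (20.3%) higher and 24 (15.2%) lower without overlap, close to the shares of all peaks, and the 79 with a long terminal repeat 0.00. The ribosomal DNA peak at RDN5-1, of which 42.0% of windows are repeated, had 449136 and 482485 normalized counts on Day 28, against 432774 and 456773 on Day 10, and its interval ran from -1.11 to 1.19.

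Among 135 genes that start in a peak higher on Day 28 at an unadjusted p under 0.05, 41 (30.4%) had a match to CGGANNA, the Rgt1 site, in the 150-base window used above, against 9 of 68 (13.2%) for peaks lower on Day 28 and 694 of 4285 (16.2%) for all genes that start in a peak. The peaks of the first set were richer in GC (median 39.8%, against 35.3% for the lower set and 38.4% for all peaks). They were also more abundant, with a median of 8.68 log2 CPM, against 7.47 for all peaks. The parts of base composition and abundance in the CGGANNA share were not tested. The other motifs searched above were counted in the same sets. In the higher set CCCCT was found in 13.3%, CCAAT in 25.9% and CTTCC in 32.6%. Among all genes that start in a peak these shares were 13.6%, 26.3% and 27.9%. CCCCGC was found in 0.741% against 2.24%, CACGTG in 2.22% against 2.68%, and the Gal4 site in 2.22% against 1.05%.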
